A study of Mus musculus with 13 samples.

Results

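Doxorubicin (DOX) is an anthracycline that enters the nucleus, slips between DNA bases and holds type II topoisomerases on DNA they have cut, so that their own catalytic step becomes a DNA break. Cells limit this exposure in several ways: they lower the amount of target enzyme, pump the drug back out through ATP-binding cassette (ABC) transporters, or reduce its side-chain carbonyl group. Reduction of its quinone ring by a single electron instead starts redox cycling. The 10 genes described here cover these steps and were chosen by name and function, with earlier results of these data known. They are the topoisomerase genes Top2a, Top2b and Top1, the efflux pump genes Abcb1a, Abcb1b, Abcc1 and Abcg2, and the reductase genes Cbr1, Akr1a1 and Por. All 10 were among the 13222 genes listed, and all 10 passed the filter on low values that left 12319 genes for testing.

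The cells were 4T1-Thy1.1, a murine triple-negative mammary carcinoma line from BALB/c mice that carries a Thy1.1 transgene, and no animal or other cell line was part of these measurements. Cells were plated to 25% confluency in 12-well plates and cultured for 48 h in 4 conditions: medium with serum alone (control, n = 3), DOX at 200 ng/mL (n = 4), recombinant mouse IL-17A at 25 ng/mL (n = 3), or both agents (DOX+IL-17A, n = 3). The comparisons ask what DOX, IL-17A and their combination did to RNA levels in tumor cells cultured alone. The paper states for its data in general that at least 3 biological replicates were used, without saying what a replicate was in these libraries. The labels do not say that replicates were separate cultures begun at different times, so p-values measure the spread between these libraries, which may be technical.

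Libraries held between 4445592 and 16930600 reads on listed genes. Values are TMM-normalized CPM, called units below, from 3' tag libraries in which each RNA molecule gives reads near its polyadenylated end, so levels of different genes can be compared without a correction for length. A value of 3 reads, taken as the floor of detection, equalled 0.183 to 0.613 units depending on the library. Control replicate 1 stood apart from the other 12 libraries along the second principal component, which held 20.5% of the variance. Results for the 10 genes that rest on it are given with and without it below. Genes of the related lists are not given without it singly, although it was the highest or lowest control library for several of them. Of 7 epithelial carcinoma markers all were listed, and their summed level was 1974 to 2357 units in control, 1755 to 2126 with IL-17A, 994 to 1100 with DOX and 872 to 1081 with DOX+IL-17A. Of 7 leukocyte markers Cd3e, Lyz2 and Cd79a were not listed, and the other 4 summed to 18.6 to 21.3 units in control, 10.6 to 16.3 with IL-17A, 27.1 to 51.3 with DOX and 12.5 to 19.6 with DOX+IL-17A. The 4 listed of 6 fibroblast markers summed to 20.2 to 128 units in control, highest in replicate 1, and to 16.3 to 64.1 elsewhere. The 7 listed of 8 muscle and red blood cell markers summed to 4.56 to 156 units with DOX, highest in replicate 1, and to 3.38 to 26.4 elsewhere. The part of these shifts in the results below was not tested. In bulk RNA, fewer cells with a gene switched on and less RNA of that gene per cell cannot be told apart.

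Type II topoisomerases pass one DNA duplex through a transient break in another. The product of Top2a is the form made in dividing cells, where it untangles chromosomes before mitosis, whereas the product of Top2b is present in dividing and resting cells and acts at promoters and other regulatory sites. In the mm10 build, Top2a lies on the minus strand of chromosome 11 (98992943 to 99024189) and Top2b on the plus strand of chromosome 14 (16365179 to 16435462). Although the proteins are close relatives, their promoters differ. The 250 bases upstream of the RefSeq start of each gene (GRCm38.p6, 5' to 3' on the gene's strand) are printed because this pair of drug targets, on which the main result turns, differs in the number of CCAAT boxes. Capitals mark matches on either strand to CCAAT (the CCAAT box), to GGGCGG (a GC box), to TTTGAA (the cell cycle homology element) or to TGACNNNGC (the core of an antioxidant response element). The windows lie at chr11:99024190-99024439 (minus strand) and chr14:16364956-16365205 (plus strand).
Top2a: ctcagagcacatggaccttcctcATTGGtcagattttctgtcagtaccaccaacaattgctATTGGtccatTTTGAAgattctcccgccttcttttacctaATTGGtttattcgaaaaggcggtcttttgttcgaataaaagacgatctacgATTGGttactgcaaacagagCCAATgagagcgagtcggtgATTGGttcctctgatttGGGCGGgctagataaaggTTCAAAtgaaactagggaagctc
Top2b: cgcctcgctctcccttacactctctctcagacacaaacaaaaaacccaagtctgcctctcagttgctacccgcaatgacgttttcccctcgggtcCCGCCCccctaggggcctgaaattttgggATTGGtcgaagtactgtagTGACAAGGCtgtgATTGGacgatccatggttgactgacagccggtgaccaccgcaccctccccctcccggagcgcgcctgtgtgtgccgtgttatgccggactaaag
The Top2a window held 6 CCAAT boxes, 1 GC box and 2 cell cycle homology elements, and the Top2b window held 2 CCAAT boxes, 1 GC box and 1 antioxidant response element core. At least 1 CCAAT box was present in 33.8% of 32851 mouse promoter windows of this length, and 19 windows (0.0578%) held 6 or more. A GC box was present in 32.7% of windows, a cell cycle homology element in 16.0% and an antioxidant response element core in 10.2%. A match to these letters is a description of the sequence and not evidence of factor binding.

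DOX lowered Top2b RNA and left a Top2a difference that did not pass the test. Top2b measured 168, 182 and 200 units in the 3 control libraries and 71.3, 74.8, 67.8 and 65.3 units in the 4 DOX libraries. The DOX libraries thus sat in a narrow band well below every control library. The mean fell from 183 ± 16.0 (SD, n = 3) to 69.8 ± 4.14 (SD, n = 4), a log2 fold change of -1.38 ± 0.18 (SE; limma, adjusted p = 0.00018). Top2a measured 2250, 1710 and 1793 units in control and 1531, 1394, 1663 and 1567 units with DOX. The highest DOX library remained just under the lowest control library, but the difference was small beside the spread, with a log2 fold change of -0.31 (95% confidence interval -0.80 to 0.18; limma, adjusted p = 0.35). Without control replicate 1, the highest control library for Top2a, it was -0.19 (limma, adjusted p = 0.60). The antisense gene Rarb overlaps the 3' end of Top2b in the annotation. It was listed at 0 to 1.40 units in these libraries, against at least 59.9 units for Top2b.

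Among all 12319 genes tested, 22.1% passed an adjusted p under 0.05 for DOX against control, and 15.3% did so with a fold change above 2. Of the 10 genes, 4 passed (Top2b, Abcb1a, Abcc1 and Abcg2) and 3 of these exceeded a 2-fold change (Top2b, Abcb1a and Abcg2). The control and DOX libraries did not overlap for 4 of the 10 (Top2a, Top2b, Abcc1 and Abcg2), against 33.7% of all genes tested. By direction, 12.4% of all genes were higher and 9.71% lower with DOX, against 2 of the 10 genes each. A list of 10 genes is too short to be set apart from these shares, and the account below rests on the individual genes.

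**Figure D1:**
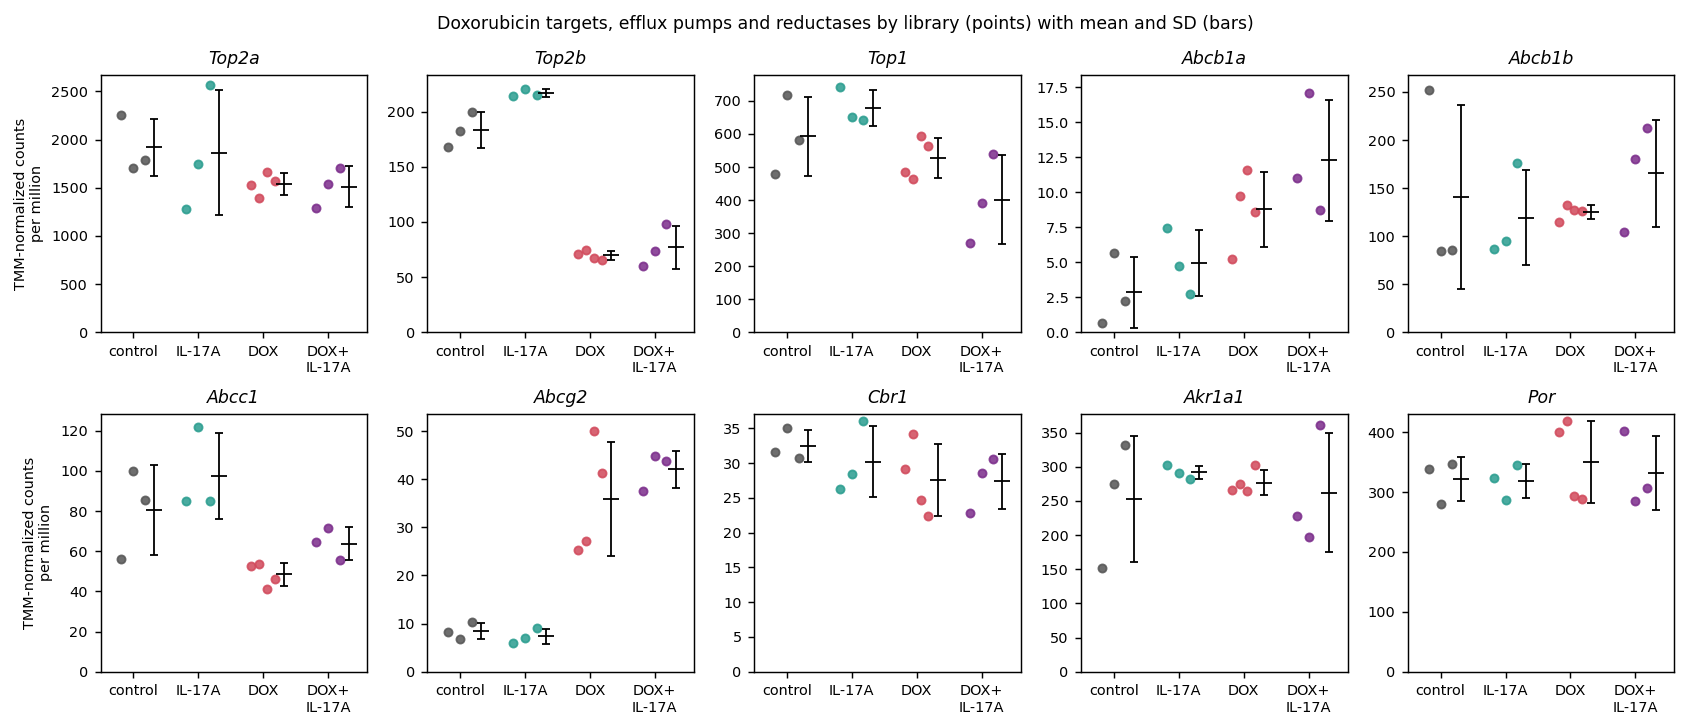
TMM-normalized CPM (y axis, linear, from 0) of the 10 genes in 13 libraries, grouped by condition. Points are libraries and bars are the mean with SD; Top2b and Abcg2 separate libraries with DOX from those without it, while Akr1a1 and Por overlap between all conditions.

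Because both topoisomerase II genes were measured in the same libraries, their balance can be read without any scaling between libraries. Top2b made up 6.95%, 9.63% and 10.03% of the summed Top2a and Top2b signal in the control libraries and 4.45%, 5.09%, 3.92% and 4.00% in the DOX libraries. Each DOX library was below each control library. The log2 ratio of Top2a to Top2b was 3.37 ± 0.32 (SD, n = 3) in control and 4.44 ± 0.18 (SD, n = 4) with DOX, a difference of 1.07 (exact permutation test, 2-sided, p = 0.0571, which is as low as this test can go with 4 and 3 libraries). The share of Top2b was 4.81 ± 0.56% (SD, n = 3) with DOX+IL-17A and 11.1 ± 3.31% (SD, n = 3) with IL-17A alone.

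Top1 encodes the type I enzyme, which nicks a single strand and is the target of camptothecins rather than of anthracyclines. Its gene lies on chromosome 2 (160645888 to 160722764, plus strand). Top1 measured 478, 718 and 582 units in control and 485, 465, 593 and 564 units with DOX, and the groups overlapped (log2 fold change -0.16, 95% confidence interval -0.63 to 0.32; limma, adjusted p = 0.645). With DOX+IL-17A it measured 272, 393 and 540 units, the lowest values in the series among them, and with IL-17A alone 742, 652 and 643 units. Every DOX+IL-17A library was below every IL-17A library, and the log2 fold change between them was -0.81 ± 0.24 (SE; limma, adjusted p = 0.0369). That call was lost in 3 of 9 alternative analyses and when any 1 of 8 libraries was left out (each IL-17A replicate, DOX+IL-17A replicates 2 and 3, and DOX replicates 1, 3 and 4), with adjusted p of at most 0.156.

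Abcg2, the breast cancer resistance protein, is a half-transporter that pumps planar drugs and dyes across the plasma membrane and is named for its part in drug-resistant breast cancer cells. It showed the largest difference among the 10 genes with DOX. Abcg2 was scarce in control, at 8.29, 6.88 and 10.3 units (49, 113 and 87 reads), and measured 25.2, 27.3, 50.1 and 41.3 units with DOX (313, 249, 358 and 462 reads). All DOX libraries were above all control libraries. The mean rose from 8.47 ± 1.69 (SD, n = 3) to 36.0 ± 11.8 (SD, n = 4), a log2 fold change of 1.92 ± 0.28 (SE; limma, adjusted p = 0.000385). In the control libraries 31.8% of tested genes were below Abcg2, so the pump started from a low level. With DOX it reached the level of the carbonyl reductase gene Cbr1, which had been well above it in control.

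Abcg2 lies on the plus strand of chromosome 6 (58584523 to 58695676) and has 3 RefSeq starts, which 3' libraries cannot tell apart. The window upstream of the start nearest the 3' end, at chr6:58640296-58640545 (GRCm38.p6), is printed because Abcg2 was the most strongly raised of the pumps.
Abcg2: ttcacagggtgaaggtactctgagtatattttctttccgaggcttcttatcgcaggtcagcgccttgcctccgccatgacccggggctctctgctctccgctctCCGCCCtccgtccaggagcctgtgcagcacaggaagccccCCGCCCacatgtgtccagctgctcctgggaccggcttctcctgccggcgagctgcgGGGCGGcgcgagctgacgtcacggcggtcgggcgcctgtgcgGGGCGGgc
It held 4 GC boxes (capitals), no CCAAT box and no TATAAA. The windows at the other starts held 0 and 2 GC boxes. The window of the pump gene Abcb1b held 2 CCAAT boxes and 1 GC box. That of Abcb1a held neither, though this window (chr5:8566841-8567090) lies far upstream of the gene's start in GENCODE (8660077). It was therefore not compared with that of Abcb1b. No RefSeq window was given for Abcc1.

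P-glycoprotein, the best known doxorubicin exporter, is encoded by a single gene in humans and by the neighbouring genes Abcb1a and Abcb1b in mice. They lie in tandem on the plus strand of chromosome 5 (8660077 to 8748575 and 8798147 to 8866315), with 49571 bases between them. Their final 500 transcript bases share no run longer than 9 bases, and none of 426 windows of 75 bases in the tail of either gene occurred in another gene, so a 3' read can be assigned to one of them. In 4T1-Thy1.1 cells nearly all P-glycoprotein RNA came from Abcb1b.

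Abcb1a was the scarcest of the 10 genes in control, at 0.68, 5.66 and 2.24 units (4, 93 and 19 reads), and measured 5.23, 9.74, 11.6 and 8.58 units with DOX (65, 89, 83 and 96 reads). The lowest DOX library was within the control range, and control replicate 1 alone was near the floor of 3 reads. The log2 fold change was 1.52 ± 0.45 (SE; limma, adjusted p = 0.0255). Without control replicate 1, where Abcb1a had 4 reads, it was 1.03 (adjusted p = 0.101), and the call was also lost without control replicate 5 or DOX replicate 2, 3 or 4, with voom (adjusted p = 0.103) and with the edgeR quasi-likelihood test (0.064).

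Abcb1b measured 252, 84.7 and 85.9 units in control and 115, 132, 127 and 126 units with DOX. The high control value belonged to replicate 1, and the other control libraries lay below all 4 DOX libraries. The log2 fold change was 0.03 (95% confidence interval -0.73 to 0.78; limma, adjusted p = 0.964), and without control replicate 1 it was 0.54 (adjusted p = 0.177). The summed Abcb1a and Abcb1b signal was 144 ± 94.1 units (SD, n = 3) in control and 134 ± 9.69 units (SD, n = 4) with DOX. Abcb1a made up 0.268%, 6.27% and 2.54% of that sum in control and 4.36%, 6.87%, 8.35% and 6.38% with DOX. The log2 ratio of Abcb1b to Abcb1a differed by -1.49 between DOX and control (exact permutation test, 2-sided, p = 0.171) and by -0.49 without control replicate 1.

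**Figure D2:**
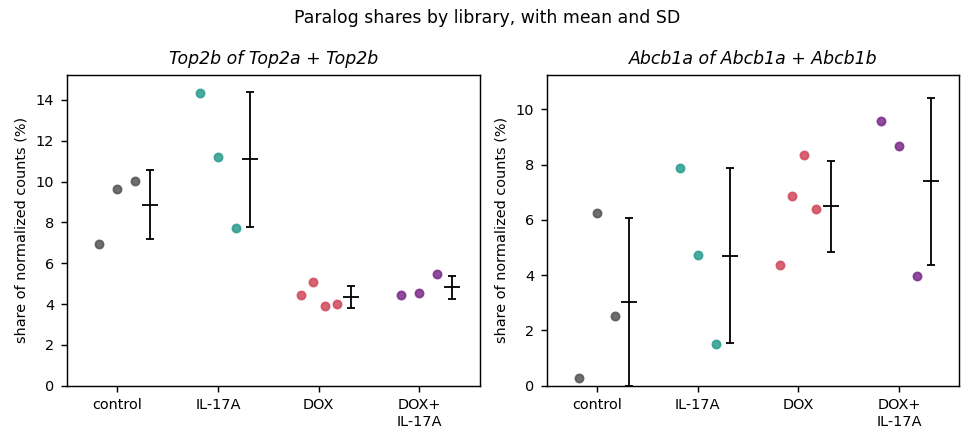
Share (y axis, %, from 0) of Top2b in the summed Top2a and Top2b signal and of Abcb1a in the summed Abcb1a and Abcb1b signal, by library and condition, with mean and SD. The 4 DOX libraries hold 3.92% to 5.09% Top2b against 6.95% to 10.03% in control, while the Abcb1a shares overlap between conditions.

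Abcc1, the multidrug resistance-associated protein that exports glutathione conjugates and anthracyclines, went the other way. It lies on the plus strand of chromosome 16 (14361558 to 14475737). Abcc1 measured 56.2, 99.9 and 85.6 units in control and 52.9, 53.5, 41.2 and 46.2 units with DOX. The DOX libraries were below all control libraries, the nearest being control replicate 1. The log2 fold change was -0.69 ± 0.23 (SE; limma, adjusted p = 0.0404), which is less than 2-fold. Without control replicate 1 it was -0.93 (adjusted p = 0.0054). The adjusted p rose above 0.05 without control replicate 3 (0.145), without control replicate 5 (0.124), without any single DOX library or without DOX+IL-17A replicate 3, and in 3 of 9 alternative analyses. Of the 4 pumps, therefore, Abcg2 was higher with DOX under every setting tried, the higher Abcb1a and the lower Abcc1 passed only under some, and Abcb1b did not pass.

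The reductases showed no difference that passed. Cbr1, on chromosome 16 (93605853 to 93610505, plus strand), encodes the cytosolic carbonyl reductase that turns doxorubicin into the less cytotoxic alcohol doxorubicinol, and Akr1a1, on chromosome 4 (116636510 to 116651680, minus strand), encodes an aldo-keto reductase that can carry out the same step. Por, on chromosome 5 (135670033 to 135735326, plus strand), encodes the NADPH reductase that feeds electrons to cytochromes P450 and can reduce the doxorubicin quinone by a single electron, which starts redox cycling. Cbr1 measured 31.6, 35.1 and 30.8 units in control and 29.2, 34.2, 24.7 and 22.4 units with DOX. The log2 fold change was -0.24 with a 95% confidence interval of -0.72 to 0.24 (limma, adjusted p = 0.46).

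Akr1a1 measured 152, 275 and 332 units in control and 265, 274, 264 and 303 units with DOX (log2 fold change 0.20, 95% confidence interval -0.33 to 0.73; limma, adjusted p = 0.59). The control libraries spread on both sides of the DOX libraries, with replicate 1 lowest. Without control replicate 1 the log2 fold change of Akr1a1 was -0.13 (limma, adjusted p = 0.696). Por measured 339, 281 and 347 units in control and 400, 419, 293 and 289 units with DOX (log2 fold change 0.11, 95% confidence interval -0.31 to 0.52; limma, adjusted p = 0.73). DOX replicates 1 and 2 were above the control range, and DOX replicates 3 and 4 were within it. For each of the 3 reductases the interval leaves out a 2-fold change in either direction.

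The levels of the 10 genes spanned a wide range in control. Top2a was the most abundant at 1918 ± 291 units (SD, n = 3), with 99.5% of tested genes below it, followed by Top1 at 592 ± 121 and Por at 322 ± 36.2. Akr1a1 at 253 ± 92.1, Top2b at 183 ± 16.0, Abcb1b at 141 ± 96.0 and Abcc1 at 80.5 ± 22.3 came next. Between Por and Abcc1 each gene's control range overlapped that of its neighbour in this order. Cbr1 at 32.5 ± 2.31, Abcg2 at 8.47 ± 1.69 and Abcb1a at 2.86 ± 2.55 followed without overlap. With DOX the order of Top2b and Abcb1b was exchanged (69.8 ± 4.14 and 125 ± 7.32 units, ranges apart), and Abcg2 (36.0 ± 11.8) and Cbr1 (27.6 ± 5.21) had overlapping ranges.

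Cells given both agents were compared with control next, to see whether the DOX differences were also present with IL-17A in the medium. This comparison shares its control libraries with DOX against control. Top2b measured 59.9, 73.6 and 98.4 units with DOX+IL-17A, below all control libraries (log2 fold change -1.26 ± 0.20, SE; limma, adjusted p = 0.00077). Abcg2 measured 37.6, 44.8 and 43.8 units, above all control libraries (log2 fold change 2.20 ± 0.30, SE; limma, adjusted p = 0.000375). Abcb1a measured 11.04, 17.1 and 8.74 units, also above all control libraries (log2 fold change 1.96 ± 0.48, SE; limma, adjusted p = 0.0126). Without control replicate 1 its log2 fold change was 1.47 (adjusted p = 0.032), and the call was lost without DOX+IL-17A replicate 3 (adjusted p = 0.0582) and with only the groups compared (0.0658).

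Thus 3 of the 10 genes passed for DOX+IL-17A against control, all with more than a 2-fold change, where 17.7% of all genes tested passed and 12.9% did so with more than a 2-fold change. By direction, 2 of the 10 were higher and 1 lower, against 9.37% and 8.34% of genes tested. The groups did not overlap for 5 of the 10 (Top2a, Top2b, Abcb1a, Abcg2 and Cbr1), against 30.1% of genes tested. Top1 and Abcb1b did not pass (log2 fold changes -0.60 and 0.37; limma, adjusted p = 0.098 and 0.53). Without control replicate 1 both passed, at -0.74 (adjusted p = 0.037) and 0.89 (adjusted p = 0.042). Abcc1 measured 64.6, 71.5 and 55.4 units and overlapped control (log2 fold change -0.30; limma, adjusted p = 0.42).

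**Figure D3:**
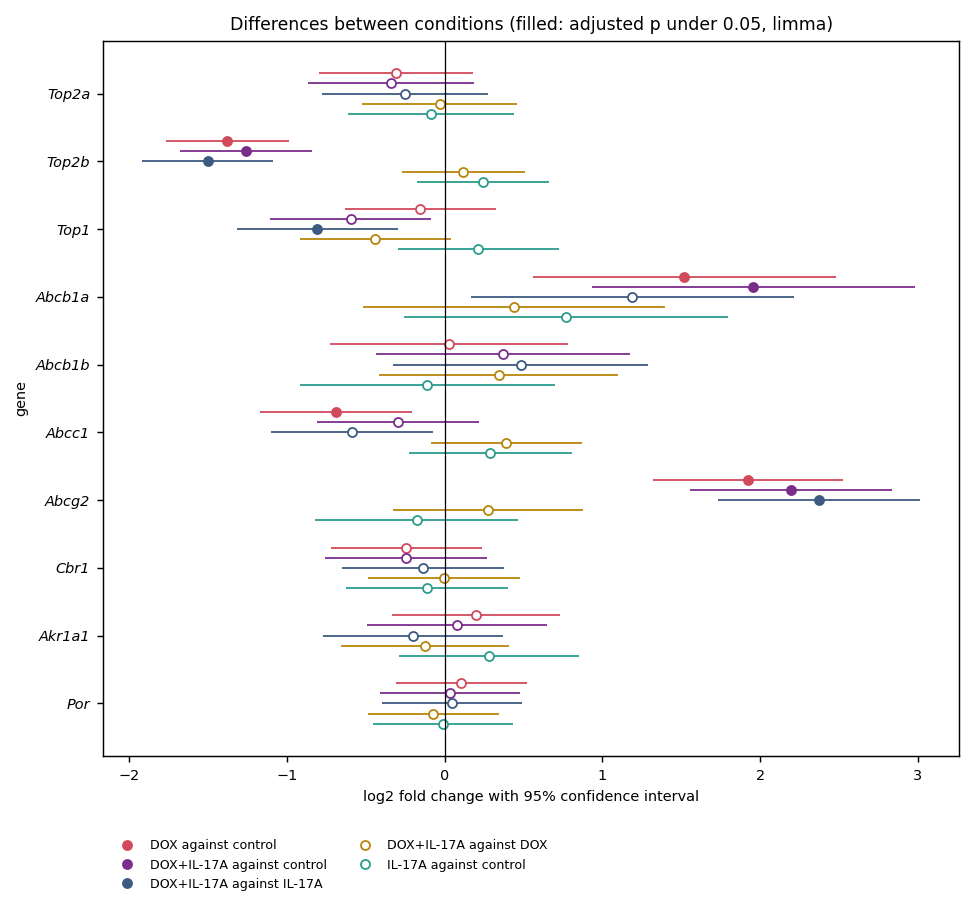
log2 fold changes (x axis) with 95% confidence intervals from limma for the 10 genes (y axis) in 5 comparisons, given by colour. Filled points passed an adjusted p under 0.05; the intervals of Top2b lie below 0 and those of Abcg2 above 0 in the 3 comparisons that differ in DOX, and no gene is filled in the comparisons that differ in IL-17A alone.

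DOX was also compared within IL-17A-treated cells, by setting DOX+IL-17A against IL-17A. Top2b measured 214, 221 and 215 units with IL-17A alone, the tightest group for this gene, and the log2 fold change was -1.50 (limma, adjusted p = 0.000401). Abcg2 measured 5.97, 7.07 and 9.11 units with IL-17A alone, and the log2 fold change was 2.37 (limma, adjusted p = 0.000316). Together with Top1, 3 of the 10 genes passed and 2 exceeded a 2-fold change, where 13.3% of all genes tested passed and 9.84% did so with more than a 2-fold change. By direction, 1 of the 10 was higher and 2 lower, against 6.51% and 6.75% of genes tested. Groups did not overlap for 5 of the 10 (Top2b, Top1, Abcb1a, Abcc1 and Abcg2), against 32% of genes tested. Abcb1a measured 7.43, 4.72 and 2.71 units with IL-17A alone and was higher in all DOX+IL-17A libraries, but did not pass (log2 fold change 1.19; limma, adjusted p = 0.117). Abcc1 measured 84.9, 122 and 85.2 units with IL-17A alone and was lower in all DOX+IL-17A libraries, and it too did not pass (log2 fold change -0.59; limma, adjusted p = 0.122). Without control replicate 1, which enters only the shared estimate of the spread, both passed (adjusted p = 0.0465 and 0.0437).

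When the DOX effect was averaged over cells without and with IL-17A, an analysis added after the data had been seen, 34.3% of genes tested passed. Of the 10 genes, 5 passed: Top2b (log2 fold change -1.44; limma, adjusted p = 3.4e-06), Abcg2 (2.15; 4.4e-06), Abcb1a (1.35; 0.0053), Abcc1 (-0.64; 0.0078) and Top1 (-0.48; 0.033). Top2a was at -0.28 (adjusted p = 0.21) and Abcb1b at 0.25 (adjusted p = 0.47). The reductases were between -0.19 and 0.07.

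IL-17A is a T-cell cytokine that acts on epithelial cells through the receptor chains IL-17RA and IL-17RC. Its effect on the drug-handling genes was examined in cells without DOX, in cells with DOX and as the difference of both effects. In IL-17A against control, none of the 10 genes passed by limma, where 0.00812% of genes tested passed. Log2 fold changes ran from -0.18 (Abcg2) to 0.77 (Abcb1a), the lowest adjusted p was 0.959, and none had an unadjusted p under 0.05. Only Top2b had groups that did not overlap, with every IL-17A library above every control library, against 6.04% of genes tested.

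In DOX+IL-17A against DOX, again none of the 10 passed by limma or had an unadjusted p under 0.05, where 0.455% of genes tested passed. That share, 14 genes higher and 42 lower, rested on single libraries, since leaving out each in turn gave between 1 (without DOX+IL-17A replicate 3) and 24 (without control replicate 1) higher and between 0 and 72 lower, and 2 higher and 5 lower without DOX replicate 4. The 4 pumps were all on the higher side, at log2 fold changes of 0.44 for Abcb1a (95% confidence interval -0.52 to 1.40), 0.39 for Abcc1 (-0.09 to 0.87), 0.34 for Abcb1b (-0.41 to 1.097) and 0.27 for Abcg2 (-0.33 to 0.87). Top1 was the lowest at -0.44. These intervals cover 0, and they do not leave out a moderate change, so the pumps cannot be called equal between the conditions. Abcc1 alone had groups that did not overlap, with 55.4 units in the lowest DOX+IL-17A library against 53.5 units in the highest DOX library, where 10.3% of genes tested had such groups. No gene passed by limma for the difference between the IL-17A effect with and without DOX, in this list or among all genes tested (unadjusted p under 0.05 for 0 of the 10 and 556 of all). Over all genes DESeq2 gave 18 genes for that difference, and voom and the edgeR quasi-likelihood test gave 0. No passing gene was found by voom, the edgeR quasi-likelihood test or DESeq2 among the 10 in any of these 3 comparisons. The IL-17A effect averaged over cells without and with DOX, also added after the data had been seen, passed for none of the 10, where 0.219% of genes tested passed.

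Related genes were described as lists by function, with the median log2 fold change for DOX against control set beside that of all genes tested, 0.09, of which 12.4% rose and 9.71% fell. Of 9 further genes for topoisomerases and for the release of topoisomerase trapped on DNA, all were tested, 3 rose and none fell, and the median was 0.38. The 3 were Top3a, which encodes a type IA topoisomerase (2.98 ± 0.47 to 8.79 ± 2.76 units; log2 fold change 1.26, limma, adjusted p = 0.0297), and its partners in the dissolution of joined DNA molecules, Rmi2 (1.18, adjusted p = 0.0134) and Rmi1 (0.90, adjusted p = 0.0366). All 3 genes that rose also passed for DOX+IL-17A against control, which uses the same control libraries. For DOX+IL-17A against IL-17A, Rmi2 passed (1.19; limma, adjusted p = 0.0258). Top3a (0.55, adjusted p = 0.42) and Rmi1 (0.82, adjusted p = 0.093) did not pass there.

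Of 42 other ABC transporter genes 21 were listed and 18 tested, of which 1 rose and 2 fell, with a median of 0.14. Abcc5, a nucleotide and organic anion exporter, rose from 11.7 ± 6.57 to 34.0 ± 4.84 units (SD, n = 3 and n = 4), with all DOX libraries above all control libraries (log2 fold change 1.63; limma, adjusted p = 0.0064). Abcd4, a lysosomal cobalamin transporter, and Abcc3, a basolateral exporter of conjugated organic anions, fell (-1.37 and -1.31; adjusted p = 0.0295 and 0.045). The Abcc3 call was lost in 6 of 9 alternative analyses and in 10 of 13 fits that left out a library. The Abcd4 call was lost in 1 of 9 and in 4 of 13, and control replicate 1 was its lowest control library.

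Abcc3 was the single gene across all these lists that passed for DOX+IL-17A against DOX. It measured 2.09, 5.58, 0.419 and 2.86 units with DOX and 22.3, 19.7 and 18.2 units with DOX+IL-17A. The value of DOX replicate 3 was at the floor of 3 reads. Each library with both agents was above every other library of the series, the next being an IL-17A library at 14.7 units. The log2 fold change was 2.69 ± 0.44 (SE; limma, adjusted p = 0.0111). It passed in 8 of 9 alternative analyses. The call was lost without any 1 of the DOX+IL-17A libraries or without DOX replicate 4, at adjusted p of at most 0.0855, and over all left-out libraries the log2 fold change was 2.29 to 3.03. Against control, DOX+IL-17A gave 1.38 (adjusted p = 0.0539), and IL-17A alone gave 0.36 (adjusted p = 0.96).

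**Figure D4:**
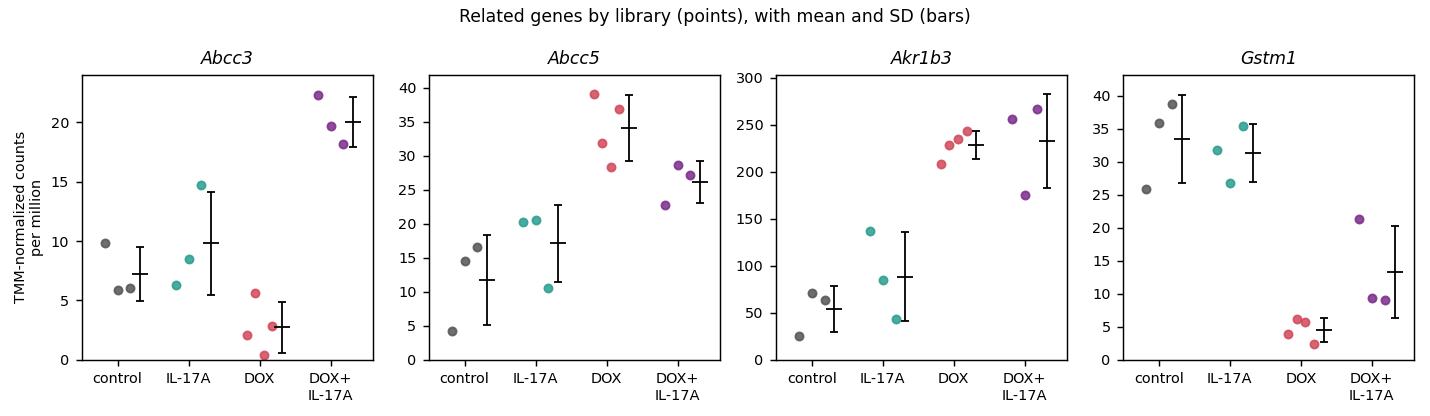
TMM-normalized CPM (y axis, linear, from 0) of Abcc3, Abcc5, Akr1b3 and Gstm1 by library and condition, with mean and SD. Abcc3 is highest in the 3 DOX+IL-17A libraries, Akr1b3 is higher and Gstm1 lower in libraries with DOX than in those without it.

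Among 17 other carbonyl and aldo-keto reductase genes, 8 were tested, 1 rose and 2 fell, and the median was -0.36. Akr1b3, which encodes the mouse aldose reductase, measured 25.7, 71.1 and 63.9 units in control and 208, 229, 235 and 243 units with DOX. These groups lay far apart, with a log2 fold change of 2.20 ± 0.36 (SE; limma, adjusted p = 0.000814), and Akr1b3 also passed for DOX+IL-17A against control (2.20, adjusted p = 0.0016). Akr7a5 and Akr1e1, which encode other aldo-keto reductases, fell (-1.39 and -1.15; adjusted p = 0.00743 and 0.03). The genes of this group that passed thus moved in both directions, and the rest of the 8 did not pass, as was so for Akr1a1 and Cbr1.

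Of 17 other flavin reductase genes, which include the quinone reductases, 14 were tested and 1 rose with DOX, with a median of 0.21. That gene was Cyb5r1, a cytochrome b5 reductase (37.7 ± 17.9 to 74.7 ± 4.38 units; log2 fold change 1.08, limma, adjusted p = 0.0133). With DOX+IL-17A against control 4 of the 14 rose and 1 fell, beside 9.37% and 8.34% of all genes tested. Of 16 genes for electron acceptors of Por 12 were tested, and 1 rose and 2 fell with a median of -0.87. Cyp1b1, a P450 that hydroxylates estrogens and aromatic hydrocarbons, rose (1.26, adjusted p = 0.0206), and Cyp20a1, an orphan P450, and Dhcr7, the last enzyme of cholesterol synthesis, fell (both -1.27; adjusted p = 0.0388 and 0.0416). Control replicate 1 was the highest control library for Cyp20a1 and Dhcr7. Over the left-out libraries their log2 fold changes shrank to as little as -0.83 and -0.96, and they passed in 7 and 6 of 13 fits.

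Of 19 genes for glutathione synthesis and transfer 18 were tested, none rose and 6 fell, with a median of -0.50. With DOX+IL-17A against control none rose and 2 fell, with a median of -0.45, beside 9.37% and 8.34% of all genes tested. Gstt1, Gstp1 and Gstp2 did not pass there (limma, adjusted p = 0.062, 0.195 and 0.194). Gstm1, a mu-class glutathione transferase, measured 25.9, 35.8 and 38.7 units in control and 3.86, 6.13, 5.73 and 2.32 units with DOX. The lowest control library was far above the highest DOX library. The log2 fold change was -2.69 ± 0.35 (SE; limma, adjusted p = 0.000144), and with DOX+IL-17A, at 21.3, 9.33 and 9.05 units, it was -1.36 against control (adjusted p = 0.0206). Gstt1 fell from 4.33 ± 0.88 to 0.386 ± 0.372 units (log2 fold change -1.97, adjusted p = 0.00547). The DOX libraries measured 0.322, 0.328, 0 and 0.894 units, with replicate 2 at the floor of detection and replicate 3 below it. Gstp1 and Gstp2 fell by 0.80 and 0.81 on the log2 scale (adjusted p = 0.0257 and 0.0254), but these near-identical copies carried almost the same values in every library and count as uncertain separately. The remaining 2 of the 6 genes that fell with DOX were Gstm5 and Gstt3, named because they complete the count.

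Of 12 genes for organic cation and anion uptake carriers 5 were tested and 1 rose. Slco4a1, a transporter of organic anions and thyroid hormone, measured 0.169, 1.70 and 0.943 units in control and 9.82, 9.20, 10.3 and 8.94 units with DOX (log2 fold change 2.53 ± 0.45, SE; limma, adjusted p = 0.0013). Control replicate 1 was below the floor of detection, the other control libraries were above it, and the DOX libraries lay in a narrow band above all 3.

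Because Top2a is a gene of dividing cells, it was set beside 26 other genes of G2 and mitosis. With DOX 4 rose, beside 12.4% of all genes tested, none fell, 20 were above 0 and the median was 0.39. The 4 were Birc5, an inhibitor of apoptosis that acts in the chromosomal passenger complex (0.97, limma, adjusted p = 0.00608), its partner Cdca8 (0.65, adjusted p = 0.0158), the mitotic kinase gene Aurka (0.92, adjusted p = 0.0112) and the spindle gene Ckap2l (0.81, adjusted p = 0.0177). The Top2a value of -0.31 lay below this median, and the difference was not tested. Control replicate 1 was the highest control library for Top2a and the lowest for each of these 4 genes. Without it Top2a was at -0.19. Over the left-out libraries the 4 genes went as low as 0.72 (Birc5), 0.56 (Cdca8), 0.62 (Aurka) and 0.53 (Ckap2l). With DOX+IL-17A 2 of the 26 genes rose against control, beside 9.37% of all genes tested (median 0.29). Against IL-17A 1 rose, beside 6.51% (median 0.10). Of the genes given here with values, Gstm1, Gstt1, Slco4a1, Abcc5, Akr1b3, Akr7a5, Birc5 and Aurka passed for DOX against control in all 9 alternative analyses and in all 13 fits that left out a library, and the others lost their call in at least 1 of them. Gstm5 and Gstt3 were not followed through these alternatives. Of the genes that kept their call, Gstt1, Akr7a5 and Birc5 did not pass for DOX+IL-17A against control (limma, adjusted p = 0.062, 0.0598 and 0.0511). Abcc5, Akr7a5 and Birc5 did not pass for DOX+IL-17A against IL-17A (limma, adjusted p = 0.314, 0.211 and 0.65).

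**Figure D5:**
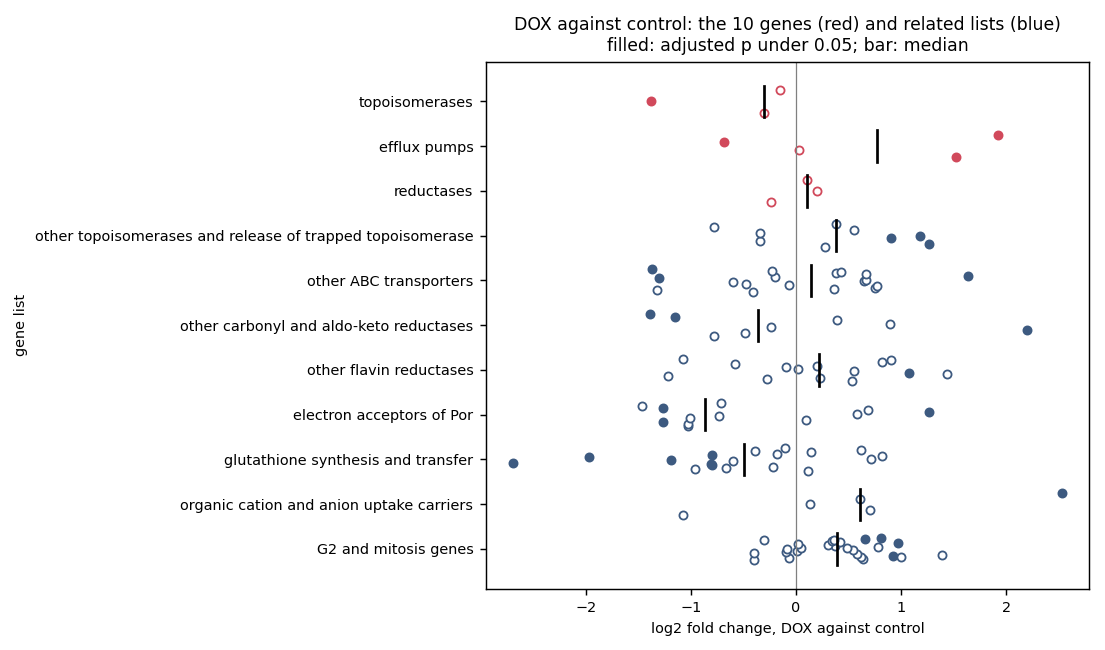
log2 fold changes for DOX against control (x axis) of the 10 genes by role (red) and of 8 related lists (blue), 1 point a gene and 1 row a list. Filled points passed an adjusted p under 0.05 by limma and the vertical bar is the median; 6 glutathione genes are filled below 0 and 4 G2 and mitosis genes above 0.

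Across the 13 libraries the genes could be placed by the likeness of their pattern, given here as Pearson's r of log2(value + 1) and as a description only, since all libraries share their conditions and scaling. Among the 10, Top2b and Abcg2 had the strongest relation (r = -0.935), followed by Top2b and Abcc1 (0.784). Abcb1a and Abcb1b, though neighbours, had an r of -0.163, and Top2a and Top2b an r of 0.509. Of all tested genes with a mean of at least 10 units, those most like Top2b included Rbpj (0.988) and Sfxn3 (0.97), and those most like Abcg2 were Ccdc137 (0.982), Endod1 (0.968) and Gm14137 (0.968). Top2a was most like Dync1h1 (0.956), Ubr4 (0.941) and Sbno1 (0.925), and Abcc1 was most like Nfib (0.937). The genes most like Top1 included Dok1 (0.936). For Abcb1a the closest gene was Fam185a (0.956), for Abcb1b Nsun2 (0.948), for Akr1a1 Nudt3 (0.943), for Por Gpd1l (0.891) and for Cbr1 Nudt2 (0.851).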

How the data were processed

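RNA of 4T1-Thy1.1 cells was sequenced in 13 libraries. Per the labels and the study's methods, the authors prepared QuantSeq 3' FWD libraries, used STAR to align single 75 base reads to mm10, and applied TMM to the gene counts of featureCounts. The signal deposited by the authors is a TMM-normalized CPM, with 13223 entries of which 1 identical second entry was dropped. Dividing each library's values by what 1 read was worth gave whole reads (100% within 0.1 read). The main test was limma 3.58.1 with a mean-variance trend, fitted to log2(value + 1) of all 13 libraries by condition alone (9 residual degrees of freedom), over 12319 genes kept by filterByExpr of edgeR 4.0.16 on recovered reads, with Benjamini-Hochberg adjustment over all of them. A fold change on this scale understates the change of genes with low values. Single ratios were compared by exact permutation tests, 2-sided. Alternatives were voom, the edgeR quasi-likelihood test, DESeq2 1.42.0, scaling by library size, other filters, a pseudocount of 0.1, the groups compared alone, the replicate number as a block and leaving out each library. Named genes were the 10 genes described, up to 4 genes of each related list with the lowest adjusted p among those that passed for DOX against control, and the genes most like each of the 10. Genes named outside this rule were chosen after their values were seen. The members and lists were chosen with earlier results of these data known. On simulated data for 12319 genes, limma recovered 135 of 200 genes changed 4-fold, with 10 false calls. Genes were placed by GENCODE vM21 and sequences taken from RefSeq (GRCm38.p6), which held a promoter for 9 of the 10 genes. Some of the genes most like a member are not reported here.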

Additional observations from a re-analysis of the deposited data

How the results depend on the processing

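For DOX against control, Top2b and Abcg2 passed in all 9 alternative analyses and in all 13 fits that left out a library, and the same held for DOX+IL-17A against control and against IL-17A. The number of the 10 genes that passed ranged from 2 to 4 over the left-out libraries for DOX against control (4 with all libraries; 2 without control replicate 5 or DOX replicate 2, 3 or 4), from 2 (without DOX+IL-17A replicate 3) to 5 for DOX+IL-17A against control and from 2 (the 8 libraries named for Top1) to 5 for DOX+IL-17A against IL-17A (3 with all libraries and 5 without control replicate 1 in both). The difference in the log2 ratio of Top2a to Top2b ranged from 0.96 to 1.25, and that of Abcb1b to Abcb1a from -2.26 to -0.49, the latter without control replicate 1. For DOX against control, Abcb1a lost its call with voom (adjusted p = 0.103) and with the edgeR quasi-likelihood test (0.064), and Abcc1 with scaling by library size (0.137) and with only the groups compared (0.064). With scaling by library size, the median log2 fold change over all genes went from 0.09 to 0.24 and the genes that passed for DOX against control from 1528 higher and 1196 lower to 2104 and 830, and under it Top1 changed sign to 0.02. Over the 10 genes and all alternatives, 1237 values kept their direction and side of the threshold, 30 lost and 7 gained the call, none that passed reversed, and 56 that did not pass changed sign. Of the other named genes, 421 values kept both and 85 lost the call. Deviations from the group means correlated at 0.151 on average in 13 pairs of libraries with the same replicate number (-0.175 to 0.491). In 50 pairs with different numbers the average was -0.0368 (-0.564 to 0.468). Of 12 libraries 7 were closest to a library of their own number. Libraries of the same number were thus more alike on average, but not in every pair. The labels do not say what the numbers mean, and the main fit left them out. Over all genes the replicate block gave 1013 passing genes higher and 767 lower for DOX against control, against 1528 and 1196 in the main fit. With the replicate block, Top2b was at -1.25 (adjusted p = 0.0033), Abcg2 at 1.998 (0.0023), Abcb1a at 1.301 (0.043) and Abcc1 at -0.70 (0.091) for DOX against control, and Abcb1a passed for DOX+IL-17A against IL-17A (0.045). With the block Abcc3 did not pass for DOX+IL-17A against DOX (0.0712), and over all genes 6 were higher and 8 lower there. With 3 or 4 libraries a group, moderate differences could go undetected, and on simulated data so did some 4-fold changes (135 of 200 recovered by limma). Counts of Abcb1a in control were as low as 4 reads. Over the DOX group, the only one with 4 libraries, no library of the 10 genes lay apart by Dixon's criterion, and groups of 3 were not tested for this.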
